A study of Rattus norvegicus with 26 samples.

Results

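The expression of 10 genes of GABA synthesis and storage and of neuropeptide signalling was compared between primary cultures of newborn rat brain cells. The genes are the GABA-synthesising enzymes Gad1 and Gad2, the vesicular GABA transporter Slc32a1, the neuropeptide precursors Vip, Sst, Cck, Npy, Tac1 and Penk, and the neuropeptide Y receptor Npy1r. They were taken by gene symbol from the annotation of the array platform, a rule that uses no level although the genes were proposed with earlier results of these data known, and all 10 were found among the 14217 genes that the array names. Total RNA had been hybridised to 26 Affymetrix oligonucleotide arrays. Neuronal, astrocytic, oligodendrocytic and microglial cultures, each with 4 replicates, had been prepared from the cerebral cortex of rat pups at postnatal day 1, and the labels give no strain, treatment or time in culture. The other 10 arrays carried mixtures of that RNA, 2 replicates of each of 5 mixtures. Neuronal RNA made up a fraction of 0.25 in NA1, 0.5 in NA2 and 0.75 in NA3, the remainder being astrocytic. NAO held neuronal RNA at 0.5 with astrocytic and oligodendrocytic RNA at 0.25 each, and NAOM held neuronal RNA at 0.5, astrocytic and oligodendrocytic RNA at 0.2 each and microglial RNA at 0.1. The first replicate of every mixture was made from neuronal replicate 1 and the second from neuronal replicate 2, so neuronal replicates 3 and 4 entered no mixture.

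GABA, the main inhibitory transmitter of the adult brain, is made from glutamate by glutamate decarboxylase and loaded into synaptic vesicles by the transporter that Slc32a1 encodes. In the cortex it is used by interneurons, which are classed in part by the peptides they store in dense-core granules and release beside GABA. These peptides are cut from larger precursors and act on receptors coupled to G proteins. The genes of several such peptides are known targets of cAMP signalling, and the cAMP response element to which the factor CREB binds was characterised in the promoter of rat Sst.

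Promoter windows of 300 bases, 250 before and 50 from the annotated start, were taken from RefSeq (build GRCr8) and were found for 8 of the 10 genes, all but Cck and Penk. Both strands were searched for the palindromic element TGACGTCA, its shorter core TGACG, the variant TGCGTCA and the TATA box TATAAA. The core lies inside the palindrome on both strands and overlaps the variant on the opposite strand. The windows of Sst, Tac1 and Npy are shown because these genes differed most between single neuronal arrays, and that of Vip because it stood furthest above the astrocytic cultures. Capitals mark the motifs, and all 4 windows lie on the plus strand, at chr11:90461296-90461595 for Sst, chr4:36645333-36645632 for Tac1, chr4:80211861-80212160 for Npy and chr1:44470230-44470529 for Vip.
Sst: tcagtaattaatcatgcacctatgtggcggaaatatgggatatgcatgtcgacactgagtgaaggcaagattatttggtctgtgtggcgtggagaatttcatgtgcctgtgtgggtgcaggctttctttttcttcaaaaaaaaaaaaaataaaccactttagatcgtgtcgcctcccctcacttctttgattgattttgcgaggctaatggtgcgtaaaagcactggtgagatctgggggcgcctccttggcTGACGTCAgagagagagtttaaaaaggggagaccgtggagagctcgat
Tac1: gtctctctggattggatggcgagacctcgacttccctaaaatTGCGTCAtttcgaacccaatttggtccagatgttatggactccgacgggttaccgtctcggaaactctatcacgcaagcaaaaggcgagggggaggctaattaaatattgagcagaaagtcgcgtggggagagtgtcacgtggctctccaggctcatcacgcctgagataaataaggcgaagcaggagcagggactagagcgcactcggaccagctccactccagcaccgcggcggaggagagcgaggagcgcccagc
Npy: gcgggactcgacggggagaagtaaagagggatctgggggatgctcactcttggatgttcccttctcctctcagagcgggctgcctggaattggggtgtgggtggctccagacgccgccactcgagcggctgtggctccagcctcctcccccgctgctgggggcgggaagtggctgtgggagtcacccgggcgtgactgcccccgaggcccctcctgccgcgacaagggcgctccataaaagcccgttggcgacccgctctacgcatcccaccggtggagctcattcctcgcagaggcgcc
Vip: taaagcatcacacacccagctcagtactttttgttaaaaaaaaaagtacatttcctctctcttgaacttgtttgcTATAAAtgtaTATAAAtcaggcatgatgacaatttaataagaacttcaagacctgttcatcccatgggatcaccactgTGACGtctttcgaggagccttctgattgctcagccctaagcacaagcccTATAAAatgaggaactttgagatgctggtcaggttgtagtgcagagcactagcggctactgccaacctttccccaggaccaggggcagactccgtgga
The Sst window held the full palindrome, from base 3 to base 10 counted from the annotated start, and 1.83% of 33469 promoter windows of this length held it. The Tac1 window held the variant from base -208 to base -202, a sequence found in 1.9% of all windows. The Vip window held the core at -97 to -93 and 3 TATA boxes, the nearest at -48 to -43. The core was present in 5 of the 8 windows (Slc32a1, Vip, Sst, Tac1 and Npy1r) and in 21.2% of all windows. The TATA box was present in 2 of the 8 (Gad1 and Vip) and in 14.2% of all windows. The windows of Npy and Gad2 held none of these letters. A match describes the letters of the window, not a bound site.

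Values are log2 expression levels, normalized by the authors by Robust Multi-array Average (RMA). Array medians ran from 5.25 to 5.31 among cultures and from 5.33 to 5.41 among mixtures. A level below every array's median is near background, which compresses differences, so a fold against such a level is written as "at least" and bounds the background effect only. Levels are given as mean ± SD and differences as log2 difference ± SE from limma, with n = 4 arrays per culture throughout. Precision is limited by the number of arrays, and the labels do not say how independent the replicate cultures were. P-values therefore measure the spread between these samples. Each probe set had a single variance over all 16 culture arrays, so an SE also carries the spread of cultures outside the comparison. The neuronal SD was 1.31 for Sst, against 0.17 to 0.28 in glial cultures, and 0.65 for Gad1, against 0.75 to 1.78. With the compared cultures alone, the limma adjusted p of Sst against astrocytes was 3.61e-05, beside 1.5e-08. Npy lost its call there (adjusted p = 0.0613). Levels of different genes come from different probes and are not compared. As a check of the labels, 12 neuron markers averaged 10.23 ± 0.22 in neuronal cultures, against 5.00 ± 0.09 in astrocytic, 6.35 ± 0.27 in oligodendrocytic and 5.65 ± 0.24 in microglial ones. Other cells were represented in each culture. The 9 astrocyte markers averaged 8.66 ± 1.02 in neuronal cultures, against 10.57 ± 0.51 in astrocytic ones, where the glutamate transporter Slc1a2 was near background. Astrocytic replicate 4, the astrocytic parent of the second replicate of every mixture, stood apart from the other astrocytic arrays. Its 7 fibroblast and meningeal markers averaged 8.76, against 6.46 to 6.53 on the others. Their summed level was 14.57, against 10.75 to 10.84, on the log2 scale. Dcn and Lum lay below every array's median on all 4 astrocytic arrays. Over these arrays the collagens Col1a1, Col1a2 and Col3a1 had SDs of 2.84, 2.53 and 2.47, whereas Ogn stood at 10.05 ± 0.07. The astrocyte markers of astrocytic replicate 4 averaged 9.85, against 10.67 to 11.06 on the others. The 11 microglia markers averaged 9.16 ± 0.47 in oligodendrocytic cultures, against 11.02 ± 0.30 in microglial ones. The 10 oligodendrocyte markers averaged 8.46 ± 0.69 in microglial cultures, against 10.72 ± 0.64 in oligodendrocytic ones. The description of microglial replicate 4 reads as a mixture whereas its title and cell type name a microglial culture. It was kept as a culture.

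Neuronal cultures expressed the 10 genes above the glial cultures in nearly every comparison. Relative to astrocytic cultures 9 of the 10 were called higher (adjusted p under 0.05 and a log2 difference of at least 1), where 12.8% of all genes were, and Penk was the exception. All 10 were called higher than in oligodendrocytic cultures (12.7% of all genes) and all 10 higher than in microglial cultures (16.1% of all genes). The same 9 genes, all but Penk, were higher than in each of the 3 glial cultures, as were 8.22% of all genes. None of the 10 was called lower than in astrocytic (17.0% of all genes), oligodendrocytic (14.9%), microglial (16.3%) or all 3 glial cultures (6.91%). The median log2 difference of the 10 genes was 5.10 against astrocytic, 5.98 against oligodendrocytic and 5.84 against microglial cultures, beside -0.08, -0.04 and -0.12 for all genes. Every neuronal array exceeded every glial array of the comparison for 9 genes against astrocytes (22.3% of all genes), for 10 against oligodendrocytes (22.5%) and for 9 against microglia (25.1%). The genes that overlapped were Penk against astrocytes and Npy against microglia. In these bulk cultures, fewer cells of a type and less RNA per cell cannot be told apart.

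**Figure D1:**
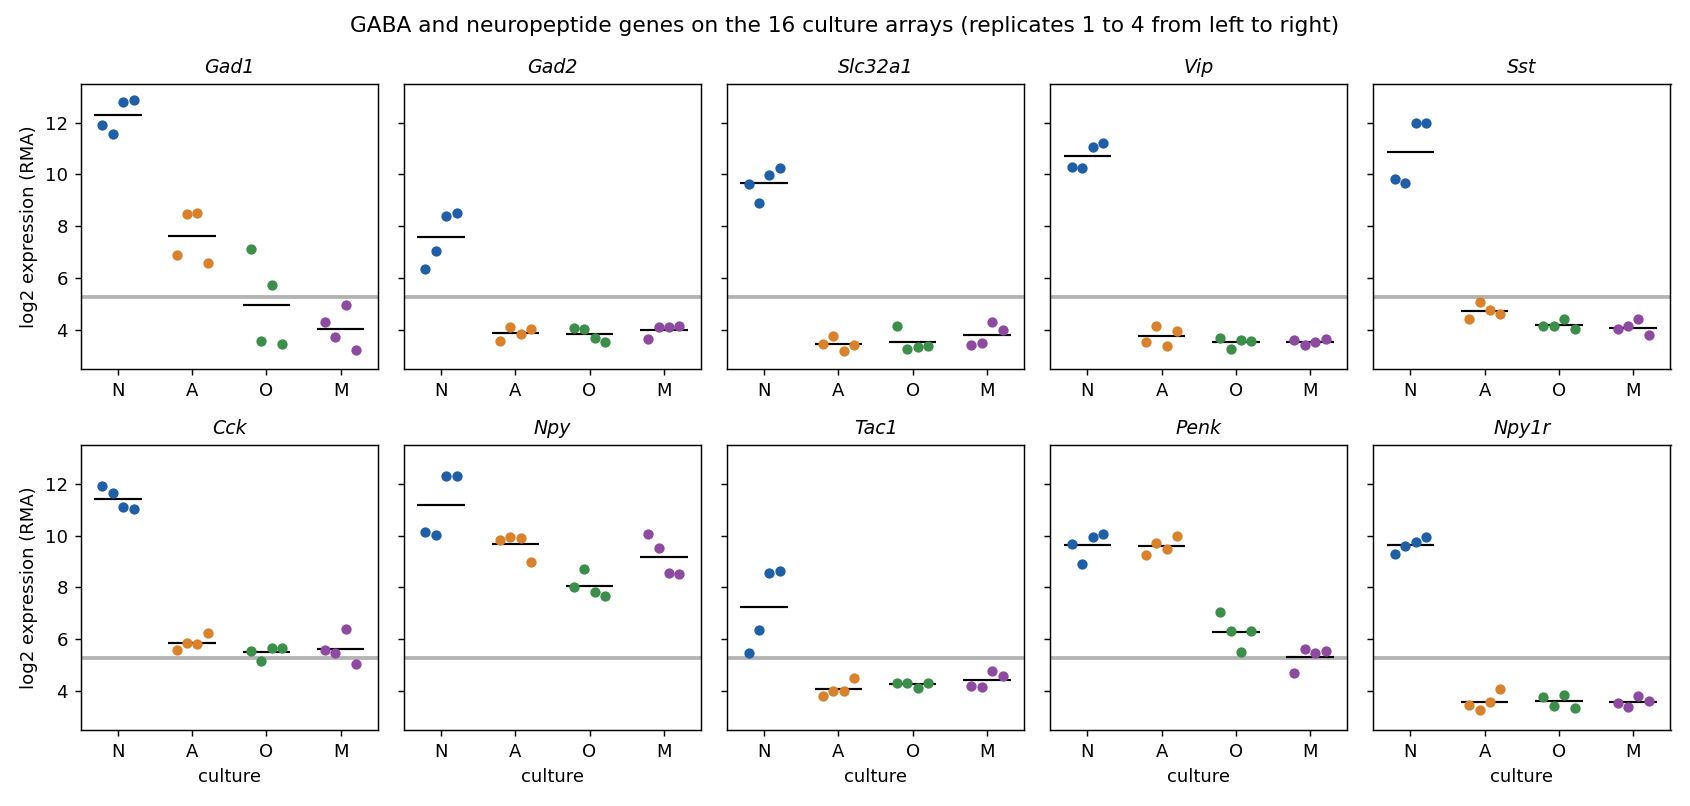
Log2 expression of the 10 genes on the 16 culture arrays, one panel per gene, for neuronal (N), astrocytic (A), oligodendrocytic (O) and microglial (M) cultures. Each point is 1 array (replicates 1 to 4 from left to right), black bars are means of 4 arrays and the grey line lies at the array medians (5.25 to 5.31). Vip, Slc32a1 and Npy1r lie at 8.91 or above on all neuronal arrays and at 4.32 or below on all glial arrays, whereas Npy lies at 7.67 or above on every array.

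Both glutamate decarboxylase genes and the vesicular transporter were neuronal in these cultures, but Gad1 was also measured well above background in astrocytic ones. Gad1 had levels of 11.91, 11.56, 12.78 and 12.87 on the 4 neuronal arrays. It had 6.89, 8.47, 8.52 and 6.59 on the astrocytic arrays, 7.14, 3.60, 5.74 and 3.46 on the oligodendrocytic arrays and 4.30, 3.76, 4.98 and 3.23 on the microglial arrays. All neuronal arrays were thus far above all others, all 4 astrocytic arrays lay above the array medians, and the oligodendrocytic arrays were divided, with replicates 1 and 3 above the medians and replicates 2 and 4 near background. Gad1 was 25.3-fold higher in neuronal than in astrocytic cultures (4.66 ± 0.72, limma adjusted p = 6.18e-05). By means it was 157-fold higher than in oligodendrocytic cultures (7.29 ± 0.72, adjusted p = 6.59e-07), which is no lower bound, as replicates 1 and 3 lay above the medians. It was at least 296-fold higher than in microglial cultures (8.21 ± 0.72, adjusted p = 1.21e-07). The oligodendrocytic mean lies between the 2 sets of arrays, and without oligodendrocytic replicate 1 the neuronal difference was 8.01 and the astrocytic difference from oligodendrocytic cultures 3.35. Among glial cultures it was higher in astrocytic than in oligodendrocytic ones (2.63 ± 0.72, adjusted p = 0.00992) and in astrocytic than in microglial ones (3.55 ± 0.72, adjusted p = 0.00111). A second, dimmer probe set of Gad1 had 7.25, 7.79, 9.16 and 9.58 on the neuronal arrays, against 3.51 to 4.82 on the 12 glial arrays. Its neuronal difference was called against each glial culture (4.09 ± 0.41 against astrocytes, adjusted p = 6.79e-07). In astrocytic cultures that probe set was near background, and its difference from oligodendrocytic cultures was 0.50 ± 0.41 (adjusted p = 0.41). Gad1 was the only one of the 10 genes with more than 1 probe set.

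Gad2, which encodes the synaptic form of the enzyme, had levels of 6.36, 7.06, 8.41 and 8.51 on the neuronal arrays. On the 12 glial arrays it lay between 3.56 and 4.17, near background everywhere. It was at least 12.8-fold higher in neuronal than in astrocytic cultures (3.68 ± 0.36, limma adjusted p = 5.3e-07), at least 13.3-fold higher than in oligodendrocytic (3.73 ± 0.36) and at least 11.9-fold higher than in microglial cultures (3.57 ± 0.36). Slc32a1 had 9.62, 8.91, 9.99 and 10.24 on the neuronal arrays, against 3.20 to 4.32 on the glial arrays. Its differences were 6.22 ± 0.28 (adjusted p = 9.21e-11), 6.14 ± 0.28 (adjusted p = 1.48e-10) and 5.87 ± 0.28 (adjusted p = 1.36e-10) against astrocytic, oligodendrocytic and microglial cultures. Neither gene passed the test in any comparison between glial cultures. In astrocytic cultures, where Gad1 averaged 7.61 ± 1.02, Gad2 averaged 3.91 ± 0.24 and Slc32a1 3.47 ± 0.24, both below every array's median.

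Of the peptide genes, Vip, Sst, Cck and Tac1 were called higher in neuronal cultures than in each glial culture, where their means were below or close to the array medians. Vip encodes vasoactive intestinal peptide, which marks interneurons that chiefly inhibit other interneurons. It had 10.27, 10.24, 11.04 and 11.23 on the neuronal arrays, against 3.29 to 4.16 on the glial arrays. It was at least 122.5-fold higher than in astrocytic cultures (6.94 ± 0.22, limma adjusted p = 2.3e-12), and the differences were 7.15 ± 0.22 against oligodendrocytic and 7.14 ± 0.22 against microglial cultures. Sst encodes somatostatin, which marks interneurons that inhibit dendrites. It had 9.81, 9.66, 11.999 and 11.996 on the neuronal arrays, so that replicates 3 and 4 stood more than 2 log2 units above replicates 1 and 2. On the glial arrays it lay between 3.80 and 5.09, below every array's median. It was at least 70.4-fold higher than in astrocytic cultures (6.14 ± 0.44, adjusted p = 1.5e-08), with 6.66 ± 0.44 against oligodendrocytic and 6.76 ± 0.44 against microglial cultures.

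Cck encodes cholecystokinin, made by a class of basket interneurons and also by many excitatory pyramidal neurons. It had 11.91, 11.65, 11.11 and 11.04 on the neuronal arrays, the higher values in replicates 1 and 2, and 5.04 to 6.41 on the glial arrays. The neuronal level was 46.7-fold that of astrocytic (5.54 ± 0.26, limma adjusted p = 1.43e-10), 60.6-fold that of oligodendrocytic (5.92 ± 0.26) and 55.9-fold that of microglial cultures (5.80 ± 0.26). Tac1, the precursor of substance P and neurokinin A, had 5.46, 6.35, 8.55 and 8.62 on the neuronal arrays, against 3.81 to 4.80 on the glial arrays. Neuronal replicate 1 was close to the array medians while replicates 3 and 4 were clearly above them. Tac1 was at least 8.91-fold higher in neuronal than in astrocytic cultures (3.16 ± 0.53, adjusted p = 0.000123), with 2.98 ± 0.53 against oligodendrocytic and 2.80 ± 0.53 against microglial cultures. Without neuronal replicate 1 the Tac1 differences were 3.75, 3.57 and 3.40. Vip, Sst, Cck and Tac1 were called in none of the 3 comparisons between glial cultures.

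Npy and Penk were measured at high levels in glial cultures too. Npy encodes neuropeptide Y, often stored in the same interneurons as somatostatin and also known from cultured astrocytes. It had 10.14, 10.04, 12.30 and 12.28 on the neuronal arrays. It had 9.82, 9.94, 9.90 and 8.999 on the astrocytic arrays, 8.03, 8.70, 7.81 and 7.67 on the oligodendrocytic arrays and 10.07, 9.54, 8.55 and 8.51 on the microglial arrays. Neuronal replicates 1 and 2 therefore lay just above the astrocytic arrays, and microglial replicate 1 lay between them, whereas neuronal replicates 3 and 4 stood apart from every other array. Npy was 2.88-fold higher in neuronal than in astrocytic cultures (1.53 ± 0.52, limma adjusted p = 0.0245). That call was lost without neuronal replicate 3 (1.16, adjusted p = 0.0893), neuronal replicate 4 (1.16, adjusted p = 0.09) or astrocytic replicate 4 (1.30, adjusted p = 0.0696), and the part of that array's fibroblast and meningeal markers was not tested. With neuronal replicates 1 and 2 as the neuronal arrays, a choice made after the values were seen, the difference was 0.42 (adjusted p = 0.501) against astrocytic and 0.92 (adjusted p = 0.0954) against microglial cultures. On all 4 arrays Npy was 8.8-fold higher than in oligodendrocytic (3.14 ± 0.52, adjusted p = 0.000122) and 4.07-fold higher than in microglial cultures (2.02 ± 0.52, adjusted p = 0.00389).

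Penk, the precursor of the enkephalins and likewise known from cultured astrocytes, had 9.67, 8.89, 9.94 and 10.05 on the neuronal arrays and 9.26, 9.70, 9.49 and 10.0003 on the astrocytic arrays. These sets of values overlapped fully, and the difference was 0.02 ± 0.32 (95% interval -0.65 to 0.70, limma adjusted p = 0.964). Penk had 7.05, 6.31, 5.53 and 6.31 on the oligodendrocytic and 4.69, 5.63, 5.48 and 5.55 on the microglial arrays, all below the neuronal and astrocytic ones. It was 10.1-fold higher in neuronal than in oligodendrocytic (3.34 ± 0.32, adjusted p = 3.73e-07) and 19.7-fold higher than in microglial cultures (4.30 ± 0.32, adjusted p = 1.48e-08). Between astrocytic and oligodendrocytic cultures the difference was 3.32 ± 0.32 (adjusted p = 8.98e-07), and between astrocytic and microglial ones 4.28 ± 0.32 (adjusted p = 4.72e-08). The order was thus neuronal with astrocytic, which did not differ beyond their spread, then oligodendrocytic, then microglial cultures, whose arrays overlapped.

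Npy1r, a receptor for neuropeptide Y, had 9.30, 9.62, 9.75 and 9.96 on the neuronal arrays, against 3.28 to 4.10 on the glial arrays. Its neuronal range was the narrowest of the 10 genes. It was at least 66.3-fold higher in neuronal than in astrocytic cultures (6.05 ± 0.18, limma adjusted p = 1.48e-12), and the differences were 6.05 ± 0.18 against oligodendrocytic and 6.06 ± 0.18 against microglial cultures. The Npy transcript was thus measured in all 4 cultures and the transcript of the receptor Npy1r above background only in the neuronal one. Peptide and receptor protein were not measured.

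**Figure D2:**
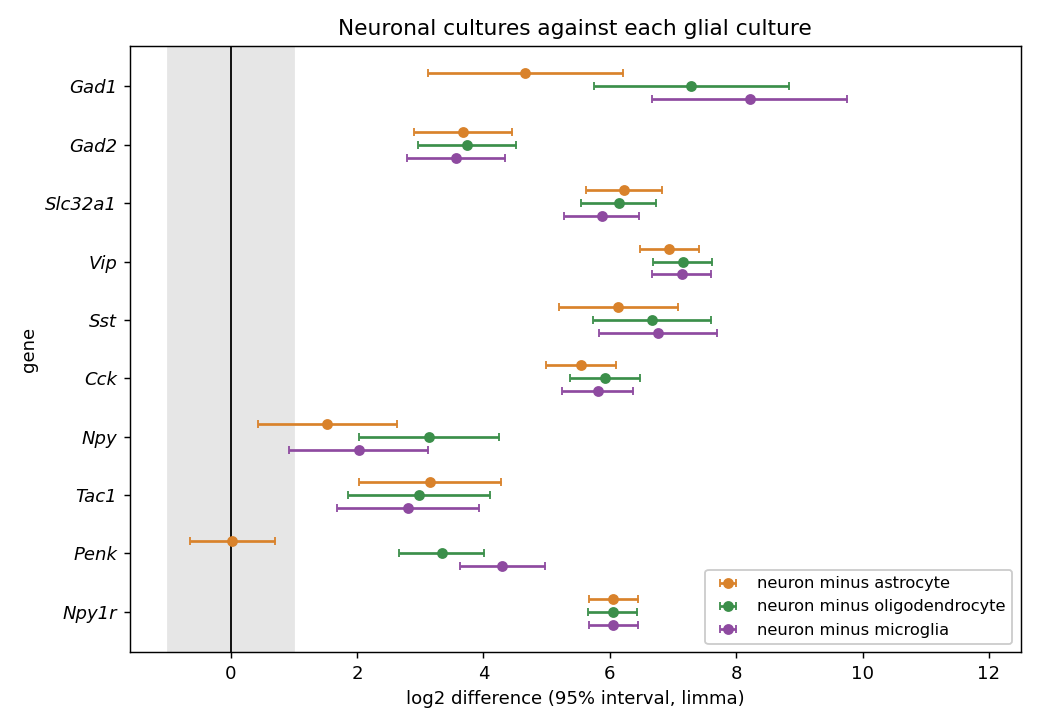
Log2 difference of neuronal cultures minus astrocytic, oligodendrocytic and microglial cultures for the 10 genes, with 95% intervals from limma. The shaded band marks differences under 1. Of the 30 differences, that of Penk against astrocytic cultures (0.02) lies in the band, and the intervals of Npy against astrocytic (from 0.42) and microglial cultures (from 0.92) reach into it.

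Between glial cultures few of the 10 genes differed. Astrocytic cultures were higher than oligodendrocytic ones for 3 of the 10, Gad1, Penk and Npy (11.5% of all genes were called higher and 9.19% lower), and 7 did not pass the test. The arrays of the pair did not overlap for 2 of these, Penk and Npy (20.6% of all genes). The Npy difference was 1.61 ± 0.52 (limma adjusted p = 0.0238). It missed the threshold without astrocytic replicate 1, 2 or 3 or oligodendrocytic replicate 3 or 4 (adjusted p from 0.052 to 0.0642). Astrocytic cultures were higher than microglial ones for 2 of the 10, Gad1 and Penk (12.3% of all genes were called higher and 8.98% lower), whose arrays did not overlap (20.0% of all genes), and the Npy difference there was 0.50 ± 0.52 (95% interval -0.60 to 1.60, adjusted p = 0.479). Oligodendrocytic and microglial cultures differed for 0 of the 10 by limma (7.06% of all genes were called higher and 5.9% lower), and no gene of the 10 had every oligodendrocytic array above every microglial one (15.7% of all genes). At an unadjusted p under 0.05 there were 2 of the 10, beside 42.3% of all genes. These were Penk, at 0.96 ± 0.32 (adjusted p = 0.0347) just under the required difference, and Npy, at -1.11 ± 0.52 (adjusted p = 0.128). Penk reached a call without oligodendrocytic replicate 3 (1.22, adjusted p = 0.00821), microglial replicate 2 (1.06, adjusted p = 0.0382) or microglial replicate 4 (1.03, adjusted p = 0.0487). The markers of microglia and of oligodendrocytes that each of these cultures also held are given above, and their part in these values was not tested.

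The 4 neuronal arrays did not carry these genes alike. Neuronal replicates 3 and 4 both exceeded replicates 1 and 2 for 9 of the 10 genes (30.5% of all genes showed this pattern), and the reverse held for Cck (29.8% of all genes). The range over the 4 arrays was at least 1 log2 unit for 7 of the 10 genes (8.84% of all genes), the exceptions being Vip, Cck and Npy1r. The median range was 1.32 for the 10 genes and 0.37 for all genes. Tac1, Sst, Npy and Gad2 ranged most, and for them replicates 3 and 4 were nearly equal while replicates 1 and 2 were lower. Over all probe sets the same pairs were closest, with Pearson's r of 0.992 between replicates 1 and 2, 0.995 between replicates 3 and 4 and 0.974 to 0.981 across the pairs. No test was made of the pairs, because they were seen in the data and the labels do not give them.

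Other genes differed between these arrays in both directions. The mean of the 10 genes was 9.45, 9.40, 10.59 and 10.68 on neuronal replicates 1 to 4. The mean of 9 astrocyte markers was 7.42, 8.26, 9.62 and 9.35, with all 9 markers higher on replicates 3 and 4 than on replicates 1 and 2. Their summed level ranged from 11.71 to 14.07 on the log2 scale over the neuronal arrays, against 14.04 to 15.49 over the astrocytic arrays, and 0 of the 9 lay below every array's median in all neuronal cultures. The mean of 12 neuron markers was 10.40, 10.44, 9.99 and 10.10, with 9 of the 12 higher on replicates 1 and 2. The mean of 9 genes of excitatory cortical neurons was 7.79, 7.66, 6.84 and 6.97, with 6 of the 9 higher on replicates 1 and 2. Of the 10 genes, 6 (Gad2, Slc32a1, Vip, Sst, Tac1 and Npy1r) were below every array's median on all astrocytic arrays, and Npy on neuronal replicates 3 and 4 (12.30 and 12.28) exceeded its highest astrocytic value (9.94). The part of astrocyte content in these differences was not tested for any of the 10.

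**Figure D3:**
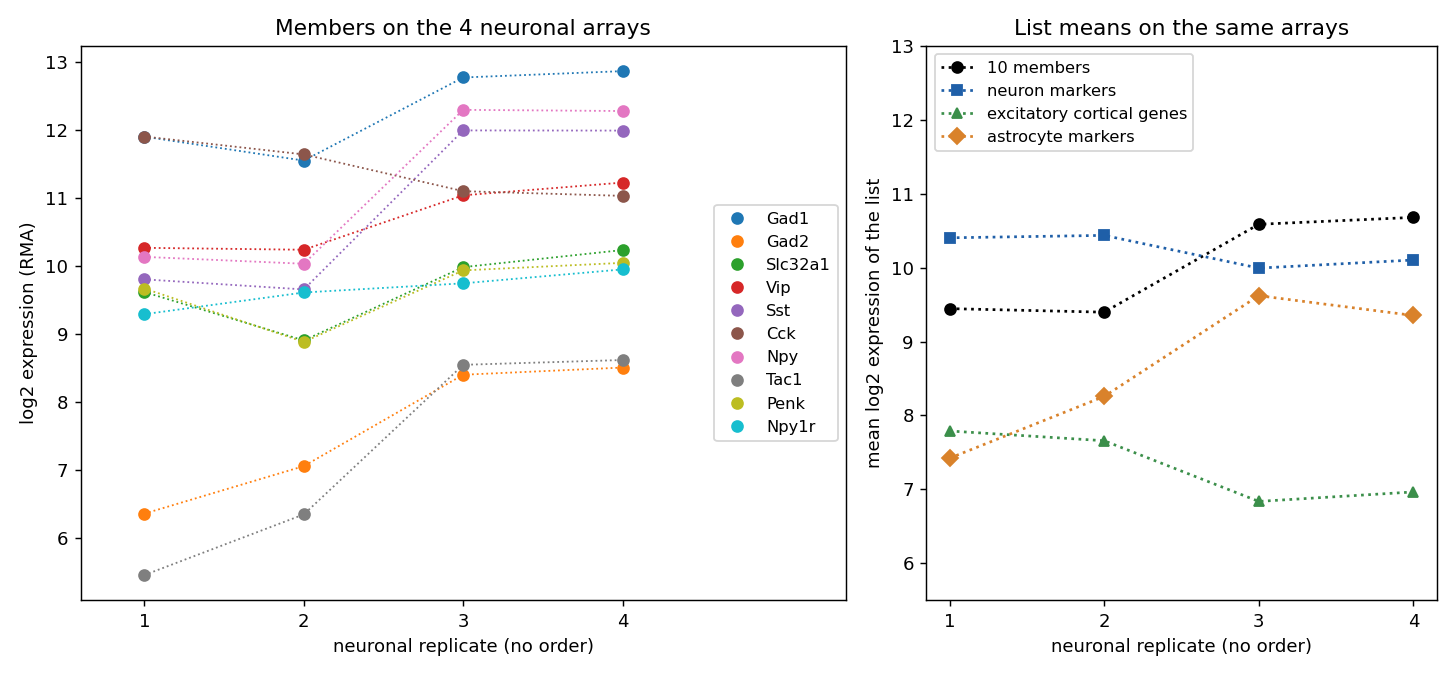
Left, log2 expression of the 10 genes on the 4 neuronal arrays. Right, mean log2 expression of the 10 genes, of 12 neuron markers, of 9 excitatory cortical genes and of 9 astrocyte markers on the same arrays. Dotted lines join the values of 1 gene or list and do not stand for an order of replicates. Cck and the neuron and excitatory lists are higher on replicates 1 and 2, and the other 9 genes and the astrocyte markers on replicates 3 and 4.

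With the pairs of neuronal arrays taken one at a time, an alternative chosen after seeing the data, 8 of the 10 genes were called higher than in astrocytic cultures from replicates 1 and 2 (13.7% of all genes) and 9 from replicates 3 and 4 (11.7%). Against oligodendrocytic cultures the count was 10 from either pair (13.2% and 11.8% of all genes). Against microglial cultures it was 9 from replicates 1 and 2 (16.4%) and 10 from replicates 3 and 4 (15.5%). The gene lost from replicates 1 and 2 was Npy in both cases. From replicates 3 and 4 its differences were 2.63 (limma adjusted p = 0.000217) against astrocytic and 3.13 (adjusted p = 4.06e-05) against microglial cultures. The Tac1 difference from astrocytic cultures was 1.82 from replicates 1 and 2 and 4.50 from replicates 3 and 4, and that of Sst was 5.01 and 7.27. Penk did not pass the test against astrocytic cultures from either pair (-0.33 and 0.38).

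A list of genes for GABA breakdown and uptake and for the supply of glutamine, from which transmitter glutamate is made, held calls in both directions. Of 8 measured, 2 were higher and 1 lower in neuronal than in astrocytic cultures, 2 higher and 2 lower than in oligodendrocytic, and 3 higher and 1 lower than in microglial ones. Over all genes, in the same order, 12.8%, 12.7% and 16.1% were higher and 17.0%, 14.9% and 16.3% lower. The median difference of the list was 0.11, 0.33 and 0.51. Aldh5a1, which oxidises succinic semialdehyde at the end of GABA breakdown, was higher than in each glial culture (2.00 ± 0.29 against astrocytes, limma adjusted p = 3.08e-05). The GABA transaminase Abat was higher than in astrocytic (1.05 ± 0.36, adjusted p = 0.0253) and microglial cultures (1.69 ± 0.36), with 0.51 ± 0.36 against oligodendrocytic ones. Abat had 6.12 and 5.86 on neuronal replicates 1 and 2 and 7.38 and 7.42 on replicates 3 and 4. The glutamine carrier Slc38a1 was higher than in oligodendrocytic (1.40 ± 0.42) and microglial cultures (3.25 ± 0.42), and the related carrier Slc38a3 was called in none of the comparisons. Glutamine synthetase, Glul, which recycles transmitter glutamate in astrocytes, was lower in neuronal cultures than in each glial culture (-1.75 ± 0.35 against astrocytes, adjusted p = 0.000658), and Slc38a2 was lower than in oligodendrocytic cultures (-1.74 ± 0.21).

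Among 8 transcription factors of interneuron lineages, 4 were higher and 1 lower in neuronal than in astrocytic cultures, and 4 higher and 2 lower than in oligodendrocytic or microglial ones. Shares of all genes were 12.8%, 12.7% and 16.1% higher and 17.0%, 14.9% and 16.3% lower. The median difference of the list was 1.23, 1.21 and 1.504. Dlx1, which specifies interneurons in the ventral forebrain, had 8.83, 8.85, 9.06 and 9.15 on the neuronal arrays and was higher than in each glial culture (4.34 ± 0.45 against astrocytes, limma adjusted p = 8.09e-07). Satb1 (3.52 ± 0.35 against astrocytes) and Dlx5 (1.97 ± 0.44) were also higher than in each. Nr2f2, a factor of the caudal ganglionic eminence, was higher than in oligodendrocytic (3.64 ± 0.35) and microglial cultures (3.49 ± 0.35), with 0.70 ± 0.35 against astrocytic ones. Sox6, which acts in interneurons and also in oligodendrocyte precursors, was lower in neuronal than in each glial culture (-2.22 ± 0.29 against astrocytes), and Maf was lower than in oligodendrocytic (-2.18 ± 0.25) and microglial cultures (-3.70 ± 0.25).

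Of 14 other interneuron markers, 7 were higher (12.8% of all genes) and 0 lower (17.0%) in neuronal than in astrocytic cultures. Against oligodendrocytic and against microglial cultures 10 were higher (12.7% and 16.1%) and 0 lower (14.9% and 16.3%). Median differences were 0.95, 2.15 and 2.28. The cannabinoid receptor Cnr1 had 11.54, 11.59, 11.55 and 11.52 on the neuronal arrays, nearly the same on all 4, and was 7.32 ± 0.45 above astrocytic cultures (limma adjusted p = 2.54e-09). The secreted matrix protein Reln (4.91 ± 0.41) and the calcium-binding protein Calb2 (3.63 ± 0.48) were also higher than in each glial culture. Calb2 had 9.60 and 10.01 on neuronal replicates 1 and 2 and 7.46 and 7.39 on replicates 3 and 4, the reverse of Sst and Npy. Calb1 was higher than in oligodendrocytic (4.66 ± 0.81) and microglial cultures (5.55 ± 0.81) but averaged 9.37 ± 0.11 in neuronal and 10.14 ± 2.24 in astrocytic cultures. The neuregulin receptor Erbb4 (4.23 ± 0.15) and the nitric oxide synthase Nos1 (4.18 ± 0.07) were near background in neuronal cultures and were called in none of the comparisons. Crhbp, which binds corticotropin-releasing hormone and was named after its values were seen, had 3.81 and 3.55 on neuronal replicates 1 and 2 and 7.87 and 7.65 on replicates 3 and 4.

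Of 17 other neuropeptide genes, 7 were higher in neuronal cultures than in each glial culture (8.22% of all genes). None was lower than in astrocytic (17.0% of all genes), 2 lower than in oligodendrocytic (14.9%) and 1 lower than in microglial cultures (16.3%). The median difference was 0.39, 0.39 and 0.08. Cartpt, the precursor of the CART peptides, was 4.03 ± 0.26 above astrocytic cultures (limma adjusted p = 4.14e-09). Corticotropin-releasing hormone, Crh, had 5.41, 4.80, 8.95 and 8.64 on the neuronal arrays (3.79 ± 0.69 against astrocytes, adjusted p = 0.000277). The nociceptin precursor Pnoc had 7.05, 6.90, 9.63 and 9.58 (2.66 ± 0.61, adjusted p = 0.00182) and neurotensin, Nts, 6.47, 4.73, 7.51 and 7.28 (2.87 ± 0.41, adjusted p = 2.71e-05). All 3 were thus higher on neuronal replicates 3 and 4, as were 9 of the 17 genes (30.5% of all genes). Grp and Nmu, named after their values were seen, showed the reverse, 2 of the 17 (29.8% of all genes). Grp had 7.01, 7.15, 5.24 and 5.18 on the neuronal arrays. Galanin, Gal, averaged 4.85 ± 0.23 in neuronal cultures, near background, and was lower than in oligodendrocytic (6.85 ± 0.64, adjusted p = 8.07e-05) and microglial cultures (-1.35 ± 0.32, adjusted p = 0.00198). Trh, at 4.13 ± 0.41 in neuronal cultures, was lower than in oligodendrocytic ones (-2.39 ± 0.59, adjusted p = 0.00345).

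Of 13 genes for cutting and storing peptide precursors, 8 were higher in neuronal than in astrocytic cultures (12.8% of all genes). The count was 10 against oligodendrocytic (12.7%) and 12 against microglial cultures (16.1%), and 0 were lower (17.0%, 14.9% and 16.3%). The median difference was 2.37, 2.90 and 3.28. The granule protein Chgb (6.49 ± 0.15 against astrocytes, limma adjusted p = 8.79e-14), the convertase chaperone Scg5 (4.08 ± 0.43) and the granule release factors Cadps (5.48 ± 0.27) and Cadps2 (4.64 ± 0.19) were higher than in each glial culture. The peptide precursor Vgf was called against microglial cultures alone (2.02 ± 0.76, adjusted p = 0.0375), and carboxypeptidase D, Cpd, in none of the comparisons. Astrocytic cultures, which held Penk and Npy, also held several of these genes. The granule protein Scg2 averaged 10.96 ± 0.90 in neuronal and 10.90 ± 1.15 in astrocytic cultures, the amidating enzyme Pam 9.99 ± 0.92 and 10.12 ± 0.12, and carboxypeptidase E, Cpe, 13.18 ± 0.09 and 12.82 ± 0.37. These 3 genes were named after their values were seen.

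Of 18 other receptors for these peptides, 3 were higher (12.8% of all genes) and 1 lower (17.0%) in neuronal than in astrocytic cultures. Against oligodendrocytic cultures 3 were higher (12.7%) and against microglial ones 2 (16.1%), with 0 lower (14.9% and 16.3%). The counts of higher receptors were thus near the shares of all genes. Median differences were 0.08, 0.15 and 0.01. The somatostatin receptor Sstr1 had 8.10, 8.55, 7.67 and 7.48 on the neuronal arrays and was 4.43 ± 0.18 above astrocytic cultures (limma adjusted p = 2.87e-11). Adcyap1r1, which binds vasoactive intestinal peptide weakly, was 2.37 ± 0.24 above them. Both were higher than in each glial culture. Vipr1 was called against astrocytic (1.33 ± 0.18) and oligodendrocytic cultures (1.45 ± 0.18), Sstr2 stood at 0.94 ± 0.13 against astrocytes, under the required difference, and Sstr4 was lower than in astrocytic cultures (-1.05 ± 0.30, adjusted p = 0.00869). Npy4r was called in none of the comparisons. Of the 18 receptors, 9 lay below every array's median on all neuronal arrays, among them Npy2r, Npy5r and the opioid receptors Oprd1, Oprm1 and Oprk1.

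**Figure D4:**
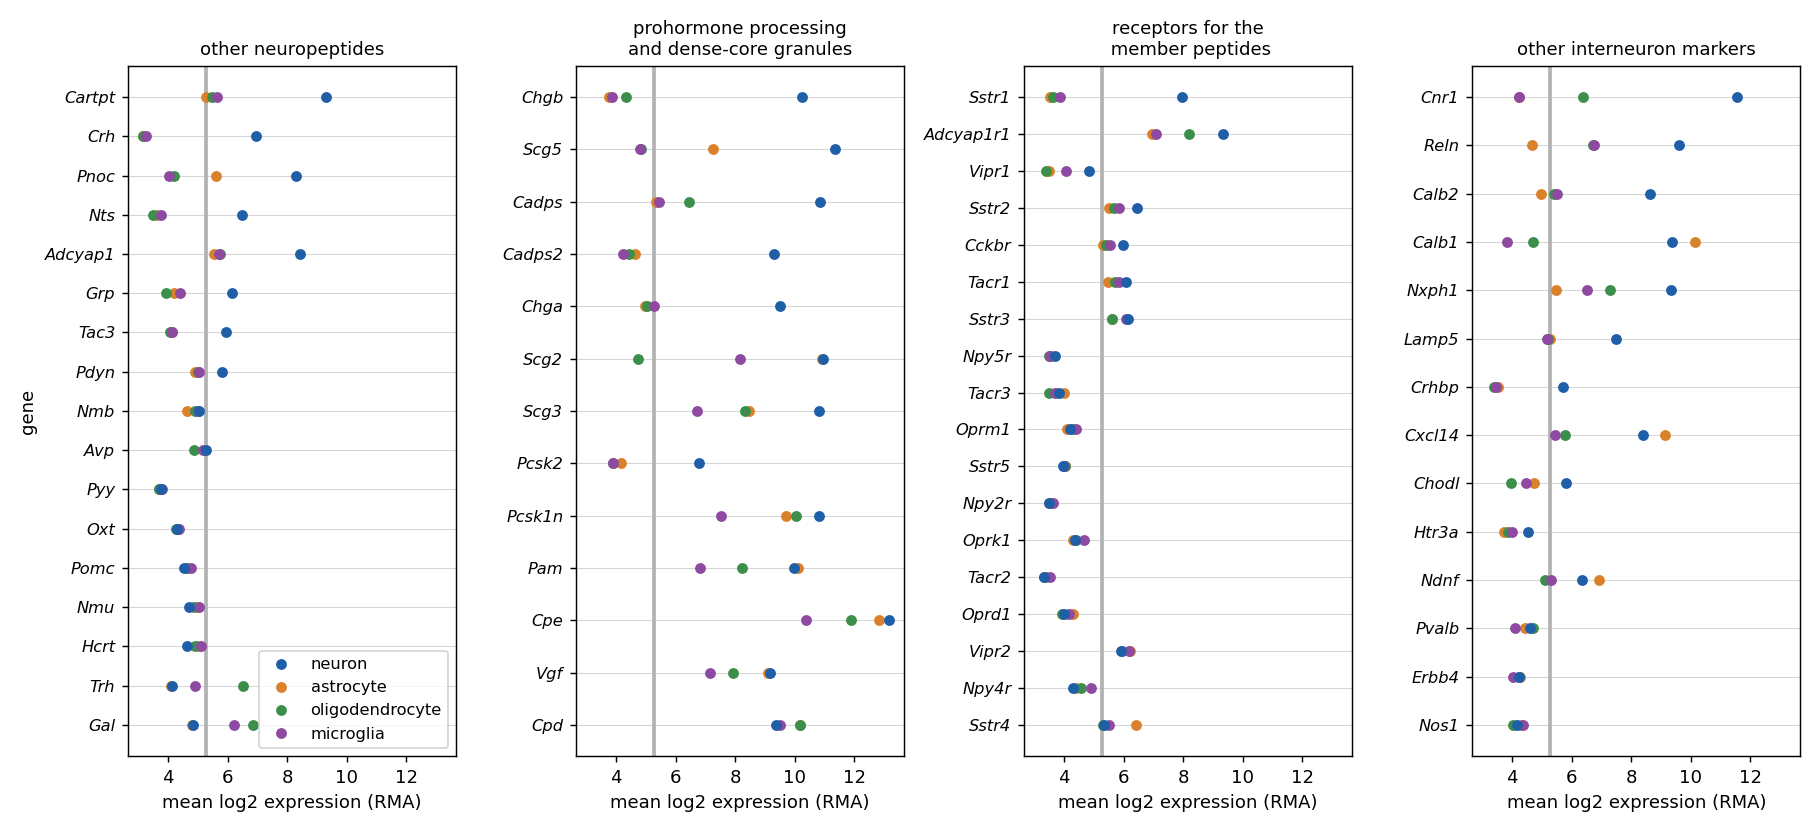
Mean log2 expression (4 arrays per culture) of the genes of 4 lists in neuronal, astrocytic, oligodendrocytic and microglial cultures, each list sorted by the neuronal level minus the mean of the other cultures. The grey line lies at the array medians. Neuronal means of Cartpt, Chgb, Sstr1 and Cnr1 lie far to the right of the glial ones, whereas neuronal and astrocytic means of Scg2, Pam and Cpe lie close together.

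Genes of excitatory cortical neurons were measured beside the 10 genes. Of 9 genes, 6 were higher in neuronal than in astrocytic cultures (12.8% of all genes). Against oligodendrocytic (12.7%) and against microglial cultures (16.1%) 7 were higher. In these comparisons 0 were lower (17.0%, 14.9% and 16.3%), and median differences were 2.92, 2.70 and 2.63. The higher genes included the vesicular glutamate transporters Slc17a6 (4.50 ± 0.22 against astrocytes) and Slc17a7 (4.06 ± 0.29). Neurod6, a factor of pyramidal neurons, had 9.36 and 9.73 on neuronal replicates 1 and 2 and 6.99 and 7.34 on replicates 3 and 4. Slc17a6 went the other way, with 8.56 and 8.60 on replicates 1 and 2 and 9.27 and 9.20 on replicates 3 and 4. Of the 9 genes, 6 were higher on replicates 1 and 2 (29.8% of all genes) and 1 on replicates 3 and 4 (30.5%). Bcl11b was 4.96 ± 0.22 above astrocytic cultures. Neurod2 (0.76 ± 0.12) stayed under the required difference, and Tbr1 was near background at 4.34 ± 0.27.

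Across the 16 culture arrays the 10 genes followed each other to unequal degrees. Pearson's r between members of a pair ran from 0.469 for Tac1 with Penk to 0.995 for Vip with Npy1r. Penk had r of 0.814 with Gad1 and of 0.628 or less with the other 8, and Npy lay between 0.628 and 0.814. These values describe arrays that fall into neuronal and glial sets, so a high r chiefly restates that split. Of all other genes, Aqp11 (r = 0.989), Etl4 (0.985), Rab3b (0.985), Cadps2 (0.985) and Slc35g2 (0.982) followed the mean of the 10 genes most closely. The nearest gene was Ralyl for Vip (0.998), Gabrb2 for Npy1r (0.998), Grin1 for Cck (0.996), Spock3 for Slc32a1 (0.995), Slc35g2 for Sst (0.992), Plcxd3 for Gad2 (0.985), Mepe for Tac1 (0.979), Robo2 for Gad1 (0.972), Tlcd4 for Penk (0.970) and Mrps35 for Npy (0.932). Grin1 encodes the obligatory subunit of NMDA-type glutamate receptors and Gabrb2 a subunit of the GABA-A receptor.

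The mixtures asked how the signal of a neuronal transcript follows the share of neuronal RNA. Over NA1, NA2 and NA3 the level increased with the neuronal fraction for 7 of the 10 genes (limma adjusted p under 0.05, 11.0% of all genes), and no gene of the 10 decreased (7.69% of all genes). Vip had 8.57 and 8.65 in NA1, 9.22 and 9.36 in NA2 and 10.01 and 9.90 in NA3. Its slope was 2.69 ± 0.21 log2 units per unit of fraction (adjusted p = 0.00404), beside 3.09 computed from its parent arrays. Slc32a1 had 7.19 and 7.04 in NA1, 8.54 and 7.92 in NA2 and 8.84 and 8.62 in NA3, a slope of 3.23 ± 0.50 (adjusted p = 0.00952). The slopes of Npy1r (2.67 ± 0.37), Sst (2.53 ± 0.32), Gad1 (2.29 ± 0.40), Cck (2.18 ± 0.35) and Tac1 (1.39 ± 0.35, adjusted p = 0.0463) also passed. Slopes from the parent arrays were steeper for these genes, at 3.02, 2.97, 2.94, 3.03 and 1.60 in the same order. For Slc32a1 the parents gave 3.03, less than observed. The Gad1 call was lost without NA1 replicate 2 (adjusted p = 0.052) or NA3 replicate 1 (adjusted p = 0.0581). The Tac1 call was lost without any single array other than NA1 replicate 2 (adjusted p from 0.0772 to 0.164).

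Gad2, Npy and Penk did not pass. Gad2 had 5.34 and 5.57 in NA1, 5.97 and 6.21 in NA2 and 7.23 and 5.92 in NA3, where its replicates lay far apart, and its slope was 2.23 ± 0.78 (limma adjusted p = 0.122). Without NA3 replicate 2 it was 3.40 (adjusted p = 0.0244). Npy had 9.92 and 9.27 in NA1, 10.02 and 9.60 in NA2 and 10.04 and 9.86 in NA3, a slope of 0.71 ± 0.48 (adjusted p = 0.434) beside 0.66 from its parents. Penk had 9.57 and 9.50 in NA1, 9.54 and 9.30 in NA2 and 9.58 and 9.24 in NA3, a slope of -0.25 ± 0.30 (adjusted p = 0.682) beside -0.33 from its parents. These are the 2 genes whose parent neuronal arrays, replicates 1 and 2, lay closest to the astrocytic ones.

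**Figure D5:**
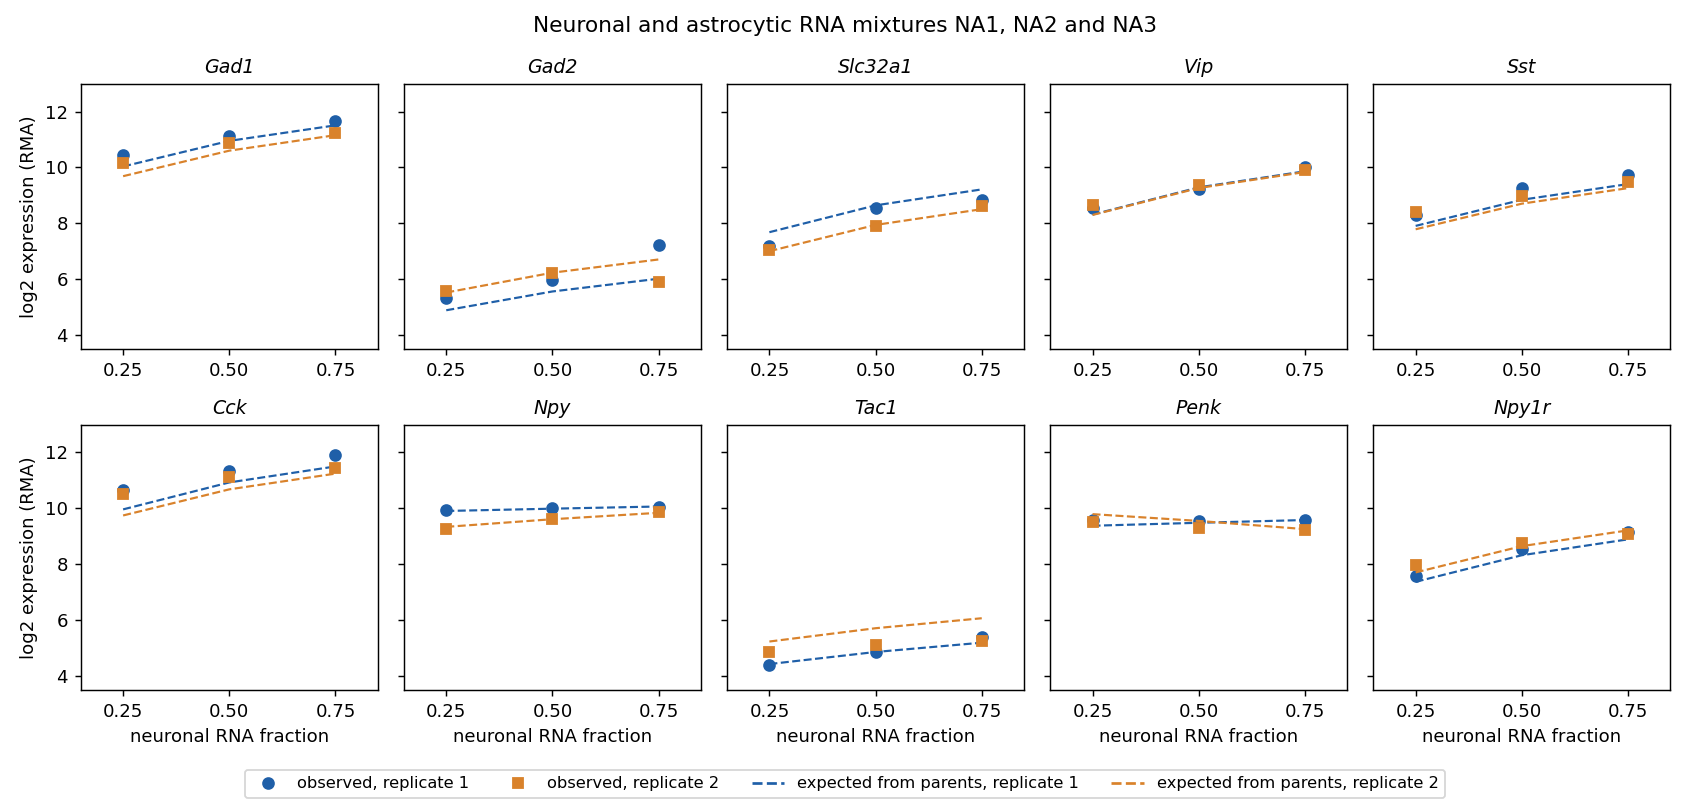
Log2 expression of the 10 genes in NA1, NA2 and NA3 against the stated fraction of neuronal RNA. Points are the observed replicates 1 and 2, and dashed lines are the values expected from the parent arrays of each replicate. Most genes climb with the fraction, Npy and Penk are almost flat (slopes of 0.71 and -0.25), Cck lies above its lines in both replicates, and the Gad2 replicates part in NA3.

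Replacing some astrocytic by oligodendrocytic RNA at the same neuronal fraction (NAO against NA2) changed 0 of the 10 genes by limma (1.44% of all genes were called higher and 0.239% lower), with 0 of the 10 at an unadjusted p under 0.05 (10.9% of all genes). The largest difference was that of Penk, with 9.29 and 8.84 in NAO, against 9.54 and 9.30 in NA2 (-0.35 ± 0.20, 95% interval -0.81 to 0.11, adjusted p = 0.73). Adding microglial RNA (NAOM against NAO) changed 0 of the 10 (0.0703% of all genes called higher and 0.0% lower), also with 0 at an unadjusted p under 0.05 (3.21% of all genes). For Vip, which had 9.51 and 9.55 in NAOM, against 9.41 and 9.40 in NAO, the difference was 0.13 ± 0.10 (95% interval -0.10 to 0.35).

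Observed mixture values were set beside the fraction-weighted sum of the linear values of the stated parent arrays. Over the 10 genes and 10 mixture arrays the median of observed minus expected was 0.12 log2 units, beside -0.12 over all genes. It was 0.049 without the first and 0.18 without the second replicates, 0.013 after median centring of the arrays, -0.52 with culture means as parents and 1.49 with mixing on the log2 scale. Cck stood above its expected value on 10 of 10 arrays (median 0.50, range 0.21 to 0.78), as did Sst (median 0.32, range 0.20 to 0.60) and Gad1 (median 0.25, range 0.07 to 0.47). Vip and Npy1r were above on 9 of 10 arrays (medians 0.14 and 0.17). Npy lay between -0.07 and 0.09 of its expected value on all 10 arrays. Slc32a1 was above on 2 of 10 (median -0.08) and Tac1 on 1 of 10 (median -0.25), and Tac1 reached -0.83 in NA3 replicate 2. Mixtures of a replicate share their parents, so the arrays are not independent of each other.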

How the data were processed

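Gene expression of 26 arrays was analysed from the deposited log2 values, which the authors made by Robust Multi-array Average (RMA) with the affy package, per the submitters' processing notes, whose versions are not given in the sources used here. The table held 31099 probe sets with values from 2.57 to 14.36. After removal of 57 controls, all of the remaining 31042 were tested, dim ones included. The platform annotation gave a single symbol for 20826, several for 436 and no symbol for 9780, and 20758 matched a gene of the GRCr8 annotation. Each of the 14217 genes was represented by its brightest probe set on average.

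Groups followed titles, cell types and stated mixing fractions. Microglial replicate 4, described as a mixture, was kept by its title and cell type. Cultures and mixtures were fitted separately in R 4.3.3 by limma 3.58.1, using lmFit and then eBayes, with p-values adjusted by the Benjamini-Hochberg method over the 31042 probe sets of a contrast. The fits were tested on simulated data. Intervals are 95% intervals of the limma coefficients. A pair of cultures was called at an adjusted p under 0.05 with a log2 difference no smaller than 1, and mixtures at an adjusted p under 0.05. The slope was fitted over the 6 arrays of NA1, NA2 and NA3. Expected mixture values used the parent arrays that the labels state.

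The 10 genes, the lists and the alternatives were chosen with earlier results of these data known. Named genes were the 10 genes, up to 4 with the largest and 2 with the smallest difference of neuronal cultures from the mean of the others in each list, and the genes most correlated with the 10. Others are stated to have been named after their values were seen. Genes of the lists without a named probe set (2 of 10 for GABA handling, 9 of 17 lineage factors, 2 of 16 markers, 1 of 18 peptides, 1 of 19 receptors, 1 of 14 processing genes and 1 of 10 excitatory genes) were not analysed here. All reported values come from fits without a replicate block. Mixtures of one number share parent arrays per the labels (r of residuals from 0.381 to 0.873 over 20 pairs), so the block was run as the paired alternative. With 2 arrays per mixture the residuals mirror each other. Each r is therefore the same for both replicates, and the 20 values are not independent. Numbers of the cultures did not pair them (r from -0.107 to 0.178 over 24 pairs, 5 of them over 0.1). Tables were handled in Python 3.11.15 with numpy 2.4.6 and pandas 2.3.3, and plots drawn with matplotlib 3.10.9.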

Additional observations from a re-analysis of the deposited data

Results flagged for a closer look

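In 40 groups of 4 arrays (10 genes in 4 cultures), 5 held an array whose gap to the nearest other array, divided by the range of the group, was above Dixon's critical value for 4 samples. Chance gives about 1 such group in 20. Npy was low in astrocytic replicate 4 (8.999), against 9.82 to 9.94 in the other astrocytic arrays, and without that replicate the neuronal difference from astrocytes missed the threshold (1.30, limma adjusted p = 0.0696). The mean of the fibroblast and meningeal markers was highest on the same array (8.76, against 6.46 to 6.53), and their part was not tested. The markers were not alike. Over the astrocytic arrays the SD was 2.84 for Col1a1, 2.53 for Col1a2 and 2.47 for Col3a1, against 0.07 for Ogn and 0.43 for Pdgfra. Dcn and Lum were near background. Penk was low in microglial replicate 1 (4.69), against 5.48 to 5.63 in the others. The other 3 lay near background: Gad2 in microglial replicate 1 (3.67), Slc32a1 in oligodendrocytic replicate 1 (4.18) and Tac1 in oligodendrocytic replicate 3 (4.14).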

How the results depend on the processing

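Counts of genes called were close to the reported ones under every alternative run, except that Penk was called between oligodendrocytic and microglial cultures in 3 of the leave-one-out fits (count 0 to 1). The alternatives were another scaling, removal of the dimmest 25% of probe sets, another variance model, the compared cultures alone, a log2 minimum of 2, the mean of probe sets, a replicate block and leaving out each replicate. Of 10 genes, 8 to 9 were called against astrocytic, 10 against oligodendrocytic and 10 against microglial cultures under these. The added split of the neuronal arrays gave 8 to 9, 10 and 9 to 10. Between astrocytic and oligodendrocytic cultures 2 to 3 were called, between astrocytic and microglial ones 2 to 2, for the slope 5 to 7, and for the other mixture contrasts 0 to 0. With the replicate number as a block, which pairs the mixtures by shared parents, the slope still gave 7 calls, and the block changed no call of the cultures (9, 10 and 10 against the 3 glial cultures).

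Penk against astrocytes, near 0 in the fit on all arrays, turned sign without neuronal replicate 3 (-0.08) or 4 (-0.11), without astrocytic replicate 1 (-0.09) or 3 (-0.02), and from neuronal replicates 1 and 2 alone (-0.33), and leaving out 1 replicate at a time gave -0.11 to 0.27. Its slope ran from -0.57 to 0.0076 without 1 array. The Gad1 slope was 1.96 (limma adjusted p = 0.221) with the mean of its probe sets. Npy against astrocytes also missed the threshold with the compared cultures alone (adjusted p = 0.0613). The median of observed minus expected mixture values was -0.52 with culture means as parents, which bring in arrays of every culture that entered no mixture. It was 1.49 with mixing on the log2 scale, 0.013 after median centring, and 0.049 to 0.18 without a replicate. The cause of these changes was not tested. For single genes, 686 alternatives kept direction and call, 19 lost and 4 gained a call and 6 turned sign. Signal near background limits folds for 6 of the 10 genes against every glial culture. It also limits those of Gad1 against microglial cultures and, through replicates 2 and 4, against oligodendrocytic ones.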
